A study of Solanum lycopersicum with 4 samples.

Results

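Mature green tomato fruit has reached its full size and has not begun to colour. The comparison described here sets the array of AtJUB1-OX pericarp, the fleshy fruit wall, against the array of wild type (WT) pericarp, both at mature green (MG), and was chosen by the titles of the samples. It uses 2 of the 4 arrays of the series, and the other 2 are the same genotypes at breaker+7 (B+7), 7 days after the first colour change. All fruits were of the cultivar Moneymaker. AtJUB1-OX plants carry AtJUB1-GFP, a fusion of AtJUB1 to green fluorescent protein, which the methods place under the constitutive cauliflower mosaic virus promoter, and come from 1 transgenic line. Fruit age in days is not given in the labels of the MG arrays, so both were called MG by their stage alone. With 1 array per genotype and stage there are no replicates, no test was run and no spread between fruits can be given.

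AtJUB1 (JUNGBRUNNEN1) is a NAC transcription factor of Arabidopsis, known there for delaying leaf senescence and raising stress tolerance. In tomato, ripening starts when fruit begins to make ethylene in large amounts, under the MADS-box factor RIN and the NAC factor NOR. Genes for ethylene synthesis, wall softening, carotenoids and aroma then come on and the photosynthetic genes of green fruit go down.

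The GeneChip Tomato Genome Array reads each transcript through a probe set, which is several short oligonucleotides matched to it. All levels below are log2 signals as deposited, and all differences are AtJUB1-OX minus WT on the log2 scale, so that 1 is 2-fold. Levels of different genes cannot be ranked, since each probe set binds with its own strength. A gene is called higher or lower where it differed by at least 1.5-fold, the cut-off of the paper. Dim means a mean level at MG below 9.73, the median of all probe sets, and bright a mean above it. The label is often left out where both levels are printed. The medians of the MG arrays were 9.71 in AtJUB1-OX and 9.75 in WT. Where 82 genes had several probe sets, the pooled SD of the MG difference between probe sets of a gene was 0.26, which covers neither the spread between fruits nor errors shared within an array. The signal of the 3' probe set over that of the 5' probe set of control transcripts, which widens as RNA breaks down, was larger in AtJUB1-OX for all 4 transcripts, by 0.13 for GAPDH to 0.53 for EF1a. The part of this gap in the differences below was not tested.

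Of 10038 probe sets, 672 were higher in AtJUB1-OX at MG (6.69%) and 681 were lower (6.78%), together 13.5%. With the trend of the difference over signal removed, 836 were higher and 501 lower. The platform annotation gives a gene to 909 of them, for 803 genes. Of these genes 100 were higher (12.5%) and 69 were lower (8.59%), together 21.0%, so that named genes passed the cut-off more often than all probe sets did. The gene lists below were chosen with earlier results of these data known, so their shares are not independent of the values. At 4-fold the balance leaned to higher levels, with 87 probe sets higher (0.867%) and 28 lower (0.279%). The cut-off was passed mostly at weak signals. Among the dimmest 2008 probe sets 19.3% passed it, among the brightest 2008 4.28%, and the SD of the difference was 0.70 in the dimmest and 0.27 in the brightest. Of the 473 genes above the median signal, 43 were higher and 22 lower.

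**Figure D1:**
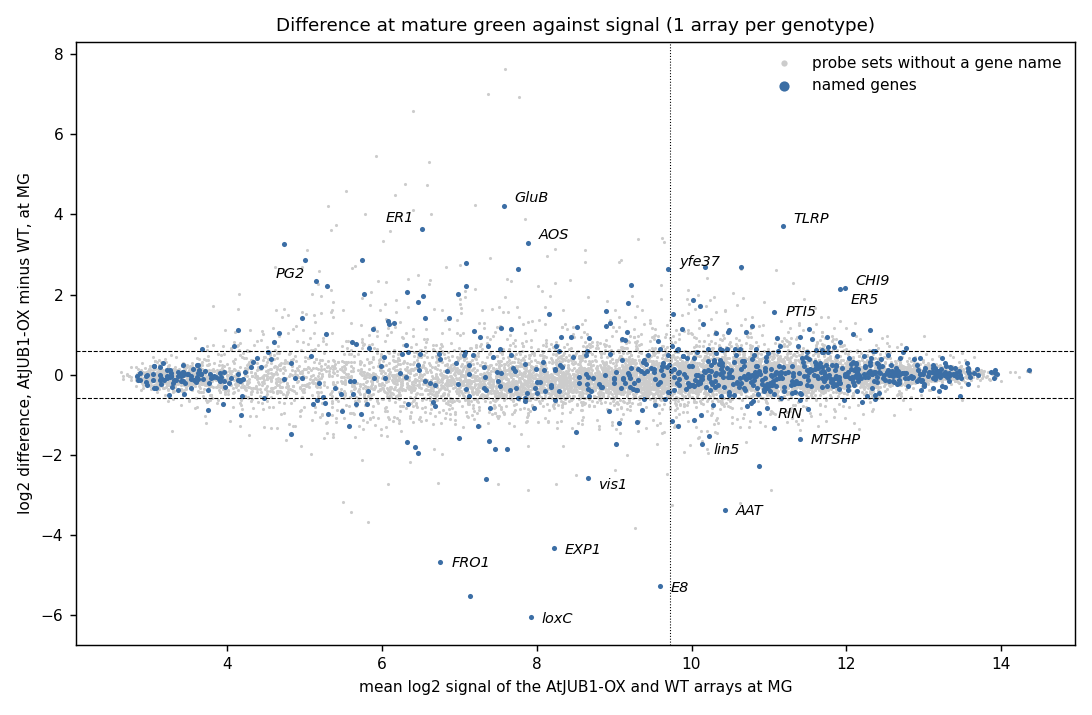
Log2 difference at MG, AtJUB1-OX minus WT, against the mean log2 signal of both MG arrays, with a point for each probe set without a gene name (grey) and for each named gene (blue). Dashed lines mark 1.5-fold and the dotted line the median signal, 9.73, and the named genes reach down to -6.07 (loxC) and up to 4.21 (GluB).

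**Figure D2:**
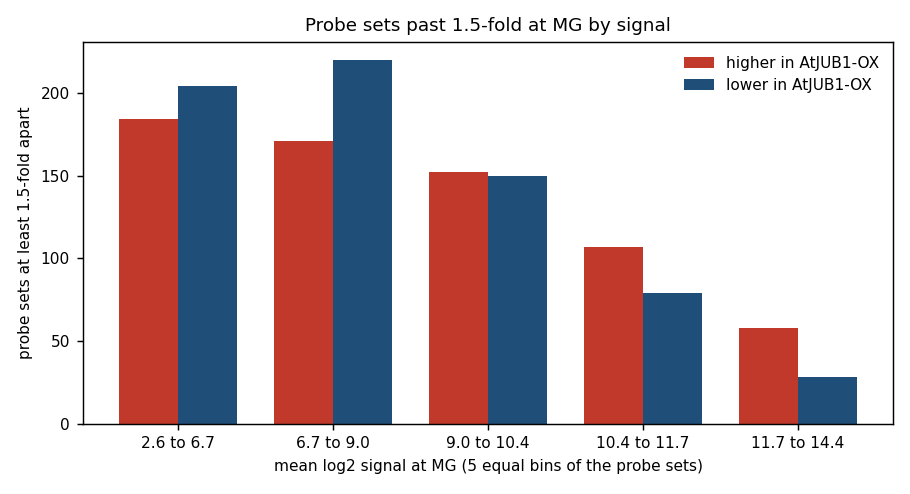
Number of probe sets at least 1.5-fold higher (left bar of each pair) or lower (right bar) in AtJUB1-OX than in WT at MG, in 5 equal bins of the probe sets by mean log2 signal. The dimmest bin holds 184 higher and 204 lower probe sets, and the brightest 58 and 28.

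Genes known for fruit ripening gave some of the widest differences, and they went both ways. E8, an ethylene-responsive gene of ripening fruit, had a level of 6.95 in AtJUB1-OX and 12.23 in WT at MG, a difference of -5.29. At B+7 E8 stood at 13.07 in AtJUB1-OX and 13.06 in WT. Of the 4 arrays, that of AtJUB1-OX at MG was thus the low one for E8.

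The lipoxygenase gene loxC, which acts in the making of fatty acid-derived aroma volatiles, had 4.89 in AtJUB1-OX and 10.96 in WT at MG, 67.0-fold lower in AtJUB1-OX. At B+7 it had 11.95 in AtJUB1-OX and 12.48 in WT. EXP1, the expansin gene of fruit softening, had 6.05 in AtJUB1-OX and 10.39 in WT at MG (-4.34), and 13.09 in AtJUB1-OX and 12.60 in WT at B+7. In each of these genes the AtJUB1-OX array at MG lies far below the other 3. The AtJUB1-OX level of loxC is weak, and with all values floored at the 25th percentile (7.40) the loxC difference is -3.56.

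AAT had 8.74 in AtJUB1-OX and 12.13 in WT at MG, a difference of -3.38, the largest among named genes above the median signal that were lower. At B+7 it had 13.47 in AtJUB1-OX and 13.43 in WT. PPCK2, which encodes a kinase of phosphoenolpyruvate carboxylase, had 6.56 in AtJUB1-OX and 8.22 in WT at MG, and 12.21 in AtJUB1-OX and 11.96 in WT at B+7. Like E8, both genes had a gap at MG and differed by at most 0.25 at B+7. With the floor PPCK2 differs by -0.82.

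Other ripening genes went the opposite way at MG, from low levels. PG2, the polygalacturonase that breaks down pectin in ripe fruit, had 6.32 in AtJUB1-OX and 3.98 in WT at MG, a difference of 2.33, and 14.23 in AtJUB1-OX and 14.16 in WT at B+7. The histidine decarboxylase gene hdc had 6.40 in AtJUB1-OX and 4.19 in WT at MG, and 13.41 in AtJUB1-OX and 13.26 in WT at B+7. The proteinase inhibitor gene ER1, first cloned as ethylene-responsive, had 8.33 in AtJUB1-OX and 4.70 in WT at MG, and 12.06 in AtJUB1-OX and 12.24 in WT at B+7. These genes stood far below their B+7 level in either genotype at MG, where the WT levels of PG2 and hdc approach the median of 3.38 that 61 reporter probe sets without a raised signal had on that array. With the floor PG2 and hdc are no longer called (0.00 for both) and ER1 differs by 0.93.

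**Figure D3:**
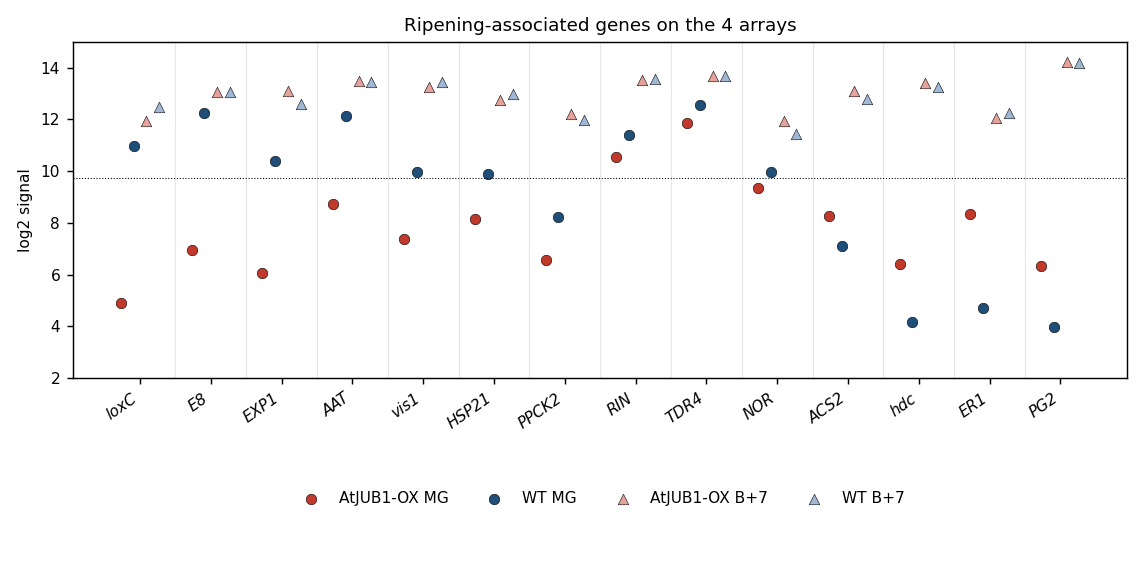
Log2 signal of 14 genes on each of the 4 arrays, with circles for MG and triangles for B+7, AtJUB1-OX left of WT in each pair, and the median signal of 9.73 at MG dotted. From loxC to NOR the AtJUB1-OX circle is the lower of the pair, from ACS2 to PG2 it is the higher, and the triangles of each gene lie within 0.53 of each other.

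Of the 7 markers of ripening pericarp, 3 were lower at MG (E8, EXP1 and RIN), 2 were higher (PG2 and ACS2) and 2 were within 1.5-fold (Psy1 and ACS4). Over all named genes 8.59% were lower and 12.5% higher. The log2 of their summed signals was 12.13 in AtJUB1-OX and 13.59 in WT at MG, and 16.27 in AtJUB1-OX and 16.16 in WT at B+7. Such a sum follows the probe sets with the strongest signals and does not weigh the genes alike. At MG it holds E8 at 6.95 in AtJUB1-OX and 12.23 in WT, while the weak PG2 and ACS2 add little to it. Among 10 transcription factors of ripening, RIN (10.56 in AtJUB1-OX and 11.39 in WT), TDR4 (11.86 in AtJUB1-OX and 12.55 in WT) and the dim NOR (9.35 in AtJUB1-OX and 9.96 in WT) were lower and none was higher. The 7 others, among them AG1, TAGL1 and MADS1, differed by -0.25 to 0.48. The 3 lower members are 30% of the list, against 8.59% lower over all named genes. The median of the list was -0.01, against 0.00 over all named genes, so that its other members did not share the lower levels. The NOR call is lost under quantile normalization, with median-centred arrays and with the trend over signal removed.

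Ethylene is made from S-adenosylmethionine through ACC, by ACC synthase (ACS) and ACC oxidase (ACO). Of 13 genes of this route 5 were higher and none lower in AtJUB1-OX at MG, with a median of 0.47, against 12.5% higher over all named genes. The S-adenosylmethionine synthetase gene SAM3 had 12.33 in AtJUB1-OX and 11.51 in WT, and is the only bright one of the 5. ACS1A had 8.49 in AtJUB1-OX and 5.69 in WT. ACS2, one of the synthases of ripening fruit, had 8.25 in AtJUB1-OX and 7.10 in WT, while the other, ACS4, had 6.52 in AtJUB1-OX and 6.73 in WT. Both ripening synthases were thus still low at MG in either genotype, against levels of 11.76 to 13.11 at B+7.

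ACO5 had 7.52 in AtJUB1-OX and 5.56 in WT, and ACS3 had 5.20 in AtJUB1-OX and 4.15 in WT. The brighter ACO4 and ACO6 differed by 0.47 and 0.38, within the cut-off. With the floor, 3 of the 13 genes remain higher, ACS1A by 1.09, and ACO5 (0.12) and ACS3 (0.00) do not.

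Ethylene is sensed by the ETR receptors, which repress the response until the hormone binds them. Of 15 genes of perception and signalling 4 were higher and none lower, against 12.5% higher over all named genes, and all 4 were receptors. ETR4 had 12.22 in AtJUB1-OX and 11.29 in WT, and LOC544279, whose synonym is ETR3, had 12.10 in AtJUB1-OX and 11.42 in WT. The dim ETR5 and ETR6 differed by 1.06 and 1.22. ETR1 and ETR2 differed by 0.05 and 0.09. Downstream, the CTR kinases, EIN2 and the EIL factors stayed between -0.36 and 0.52.

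Among 15 members of the ethylene response factor, CBF and DREB family 7 were higher and 1 lower, with a median of 0.48, against 12.5% higher and 8.59% lower over all named genes. PTI5, whose product was first found as a partner of the Pto resistance kinase, had 11.85 in AtJUB1-OX and 10.29 in WT. ERF2 had 11.51 in AtJUB1-OX and 10.79 in WT, and JERF3 had 11.41 in AtJUB1-OX and 10.82 in WT. The dim EREB, PTI4, ERF4 and CBF1 were higher by 1.35, 0.94, 0.92 and 0.90, and EREB is not called with the floor. DREB1, for which RefSeq gives the synonym SlERF-H15, was the exception, with 8.45 in AtJUB1-OX and 9.66 in WT. The brightest member, JERF1, had 13.49 in AtJUB1-OX and 13.32 in WT.

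Among 11 genes first cloned as ethylene- or ripening-responsive in fruit, E8 was lower, ER1 and ER5 were higher and 8 were within 1.5-fold. Over all named genes 8.59% were lower and 12.5% higher. ER5, whose product resembles late embryogenesis abundant proteins, had 12.98 in AtJUB1-OX and 10.85 in WT at MG, and 9.29 in AtJUB1-OX and 10.44 in WT at B+7. The fruit-specific 2A11, among the strongest signals on the array, had 14.42 in AtJUB1-OX and 14.30 in WT.

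Defence genes were higher in AtJUB1-OX more often than any other list of 10 or more genes. Lists and members were chosen with earlier results of these data known, so this ranking is not independent of the values. Pathogenesis-related (PR) proteins accumulate in plants under attack and include enzymes that cut fungal cell walls. Of 14 such genes, chitinases included, 10 were higher and none was lower, with a median of 0.92, against 12.5% higher and a median of 0.00 over all named genes. GluB, a basic beta-1,3-glucanase gene, had 9.68 in AtJUB1-OX and 5.47 in WT at MG, a difference of 4.21, the largest of all named genes with the values as deposited. The WT level is weak, and with the floor GluB differs by 2.28, less than TLRP (3.71), LOC778302 (2.69) and yfe37 (2.63). At B+7 it had 10.03 in AtJUB1-OX and 10.20 in WT, so that at MG the WT array alone is low.

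CHI9, a basic chitinase gene, had 13.06 in AtJUB1-OX and 10.90 in WT at MG, and 11.34 in AtJUB1-OX and 11.33 in WT at B+7. Here the AtJUB1-OX array at MG stands above the other 3. The osmotin-like NP24-I had 11.87 in AtJUB1-OX and 10.93 in WT, CHI17 had 12.01 in AtJUB1-OX and 11.11 in WT, and PR-P2, of the PR-4 type, had 12.19 in AtJUB1-OX and 11.50 in WT. These 4 bright genes keep their calls under every scaling and floor tried.

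TSI-1, a stress-induced gene of the PR-10 type, had 9.08 in AtJUB1-OX and 6.45 in WT at MG. PR-5 had 7.18 in AtJUB1-OX and 4.31 in WT at MG, and 3.93 in AtJUB1-OX and 3.90 in WT at B+7. LOC543878, whose synonym is PR5, had 6.37 in AtJUB1-OX and 3.10 in WT at MG, and 9.33 in AtJUB1-OX and 5.40 in WT at B+7. The chitinase gene CHI14 had 6.79 in AtJUB1-OX and 4.76 in WT at MG, and P69A, a subtilisin-like protease gene, had 7.73 in AtJUB1-OX and 7.01 in WT. All of these are dim. With the floor PR-5, LOC543878 and CHI14 lie at the floor on both arrays, P69A differs by 0.34, TSI-1 differs by 1.68, and 6 of the 14 genes remain higher, with a median of 0.27. The 4 members within 1.5-fold were CHI3 (-0.34), P4 (-0.17), PR1b1 (0.05) and P69B (0.21), and CHI3, PR1b1 and P69B are bright.

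**Figure D4:**
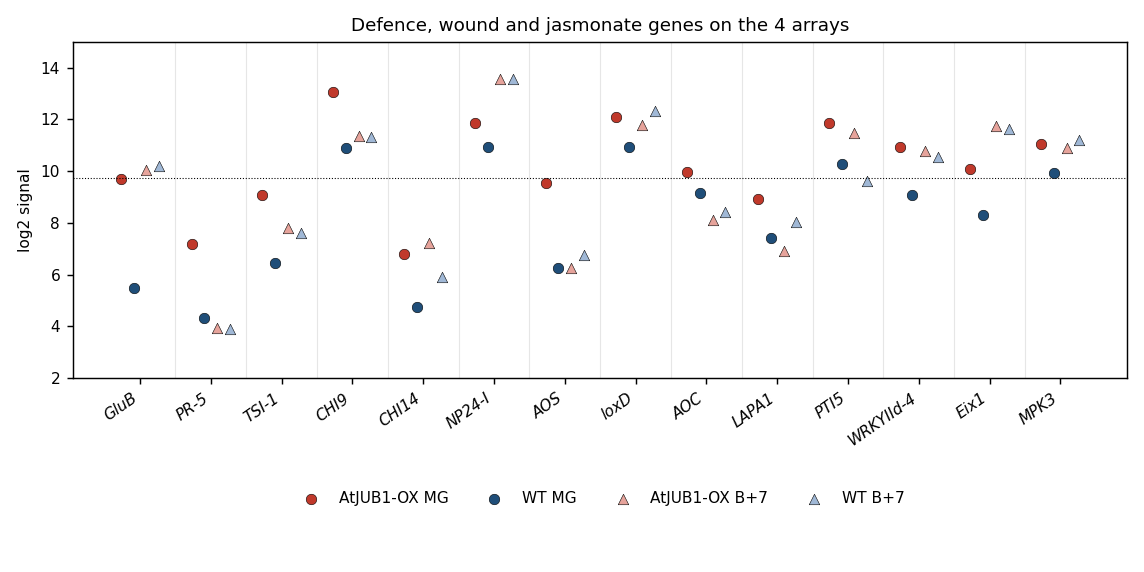
Log2 signal of 14 defence, wound and jasmonate genes on each of the 4 arrays, with circles for MG and triangles for B+7, AtJUB1-OX left of WT in each pair, and the median signal of 9.73 at MG dotted. The AtJUB1-OX circle lies above the WT circle in all 14, by 0.84 (AOC) to 4.21 (GluB), which is how they were chosen.

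Receptor and resistance genes gave 4 of 5 higher, against 12.5% over all named genes. Eix1, the receptor-like gene for a fungal xylanase, had 10.08 in AtJUB1-OX and 8.29 in WT. The Verticillium resistance genes Ve1 and Ve2 differed by 1.08 and 0.61, and Asc-1, which gives resistance to Alternaria toxins, by 0.65. Ve1 differs by 0.33 with the floor. PTI1, a kinase that acts with Pto, differed by -0.17. MPK3, a mitogen-activated protein kinase gene of defence signalling, had 11.04 in AtJUB1-OX and 9.93 in WT, and its 3 probe sets differed by 1.03 to 1.16. Of 6 WRKY factors, a family with many members in defence, only WRKYIId-4 was higher, against 12.5% over all named genes. WRKYIId-4 had 10.95 in AtJUB1-OX and 9.09 in WT, and the 5 others lay between -0.38 and 0.33.

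Jasmonate, the wound hormone, is made from linolenic acid by a 13-lipoxygenase, allene oxide synthase (AOS), allene oxide cyclase (AOC) and the reductase OPR3. AOS had 9.53 in AtJUB1-OX and 6.24 in WT at MG, and 6.25 in AtJUB1-OX and 6.74 in WT at B+7, so that the AtJUB1-OX array at MG is the high one of the 4. With the floor the AOS difference is 2.14. The lipoxygenase loxD had 12.09 in AtJUB1-OX and 10.94 in WT, and AOC had 9.98 in AtJUB1-OX and 9.14 in WT. OPR3 differed by 0.32. The first steps of the route were therefore higher and its last step measured here was within 1.5-fold.

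Beyond synthesis, the wound-induced leucine aminopeptidase gene LAPA1 had 8.91 in AtJUB1-OX and 7.40 in WT. The receptor gene COI1 and the factor MYC2 differed by -0.35 and 0.14. Of the 12 genes of the jasmonate list 3 were higher and none lower, against 12.5% higher over all named genes, and its median was 0.06. Among 10 genes of lipoxygenases and volatiles 4 were higher (loxD, TomloxE, DES and Fad7) and 2 lower (loxC and LOXB), and DES is not called with the floor. Over all named genes 12.5% were higher and 8.59% lower, and the median of this list was 0.04. LOXB had 11.65 in AtJUB1-OX and 12.28 in WT, and ADH2 and HPL, which make aroma alcohols and aldehydes, differed by 0.02 and 0.05.

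Of 8 heat shock genes 4 were lower and none higher, with a median of -0.88, against 8.59% lower over all named genes. That median falls between the 4 lower members and the others, and the median of the 6 bright members was -0.20. The 4 encode small heat shock proteins, chaperones that bind unfolded proteins, and are vis1 (7.37 in AtJUB1-OX and 9.96 in WT), the chloroplast HSP21 (8.15 in AtJUB1-OX and 9.90 in WT), the mitochondrial MTSHP (10.59 in AtJUB1-OX and 12.20 in WT) and HSP17.4 (9.46 in AtJUB1-OX and 10.99 in WT). At B+7 they differed by -0.25 to 0.30. The members within 1.5-fold were HSP17-6 (-0.22), which is itself a small heat shock gene and the brightest of the list, and the HSP90 and HSP70 types Hsp90-1, HSC80 and ER21 (-0.17 to 0.08). ER-SHSP, which the list leaves out and whose synonym names a small heat shock protein, was named after its value was seen and differed by -0.53.

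Of 10 photosynthetic genes 6 were lower and none higher, against 8.59% lower over all named genes. The 4 others, PETE (-0.39), PSBP (-0.24), PSBO (-0.18) and PSBR (-0.06), were within 1.5-fold, and the median of the list was -0.62. The chlorophyll-binding protein gene CAB6A had 11.08 in AtJUB1-OX and 11.71 in WT, PsbQ of photosystem II had 12.06 in AtJUB1-OX and 12.68 in WT, and psaD of photosystem I, listed as LOC543978, had 10.33 in AtJUB1-OX and 11.11 in WT. POR2, which makes chlorophyllide, had 11.08 in AtJUB1-OX and 11.94 in WT. The dim CAB5 and CAB4 differed by -1.80 and -0.88, and with the floor CAB5 is no longer called (0.00). The brightest, PSBR, had 13.40 in AtJUB1-OX and 13.46 in WT. The PsbQ call is lost with median-centred arrays.

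Of the 8 markers of green tissue 5 were lower, against 8.59% lower over all named genes. All 8 are in the photosynthesis list, and the 5, CAB5 and PsbQ among them, were already counted there. The log2 of the summed signals of the 8 markers was 14.95 in AtJUB1-OX and 15.26 in WT at MG. The blue light receptor gene CRY1A had 9.46 in AtJUB1-OX and 10.61 in WT, and its other probe set differed by -0.98. The 7 other genes of light perception lay between -0.50 and 0.24. The share of this list called was 12.5%, against 21.0% over all named genes.

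Among 15 carotenoid and isoprenoid genes 2 were lower and 2 higher, against 8.59% lower and 12.5% higher over all named genes. ZEP, which turns zeaxanthin to violaxanthin, had 9.90 in AtJUB1-OX and 10.67 in WT. NSY, for which RefSeq gives the synonym Cyc-B, a lycopene cyclase, had 10.84 in AtJUB1-OX and 9.79 in WT. Psy1, the phytoene synthase of ripening fruit, had 11.17 in AtJUB1-OX and 11.64 in WT, within 1.5-fold. Its other, dim probe sets differed by -0.07 and 0.26. PDS and ZDS differed by -0.20 and -0.07. CrtR-b1, lower by -0.59, is within the cut-off under centring, quantile normalization and removal of the trend, and the dim HMGR differed by 0.71, a call lost with the floor.

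Wall enzymes other than expansins gave 7 higher and 5 lower of 37, with a median of 0.01. Together 32.4% were called, against 21.0% over all named genes. The beta-galactosidases, which trim pectin side chains, split. TBG5 had 10.52 in AtJUB1-OX and 9.00 in WT and TBG6 10.94 in AtJUB1-OX and 10.30 in WT, while TBG3 had 9.16 in AtJUB1-OX and 10.33 in WT and the dim TBG4 6.99 in AtJUB1-OX and 7.82 in WT. Of the xyloglucan-modifying XTH genes, XTH3 had 12.86 in AtJUB1-OX and 11.75 in WT, and LOC543916, whose synonym is XTH9, had 11.00 in AtJUB1-OX and 9.94 in WT. XTH16 was higher by 0.59, a call lost under quantile normalization and with the mean of its probe sets, and the dim XTH7, XET2 and Man4 differed by -0.73, -0.72 and -0.74. The endoglucanase gene Cel1 had 7.75 in AtJUB1-OX and 6.79 in WT. With the floor XTH7, XET2, Man4, TBG4 and Cel1 are not called, which leaves TBG3 as the lower one of the 37.

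PE1, PME2.1 and PMEU1, genes of pectin methylesterases and all bright, differed by 0.13, 0.17 and 0.01. Besides EXP1, the expansins EXP5 and EXPA3, the bright ones of 12, differed by -0.07 and 0.03. EXP12 had 7.51 in AtJUB1-OX and 8.18 in WT, and the 8 dim expansins not yet named lay between -0.11 and 0.52. With the trend over signal removed, EXP12 is within 1.5-fold (-0.53) while EXPA10 (0.65) and exp11 (0.64) are higher. The wide difference of EXP1 is thus not shared by any other expansin measured.

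**Figure D5:**
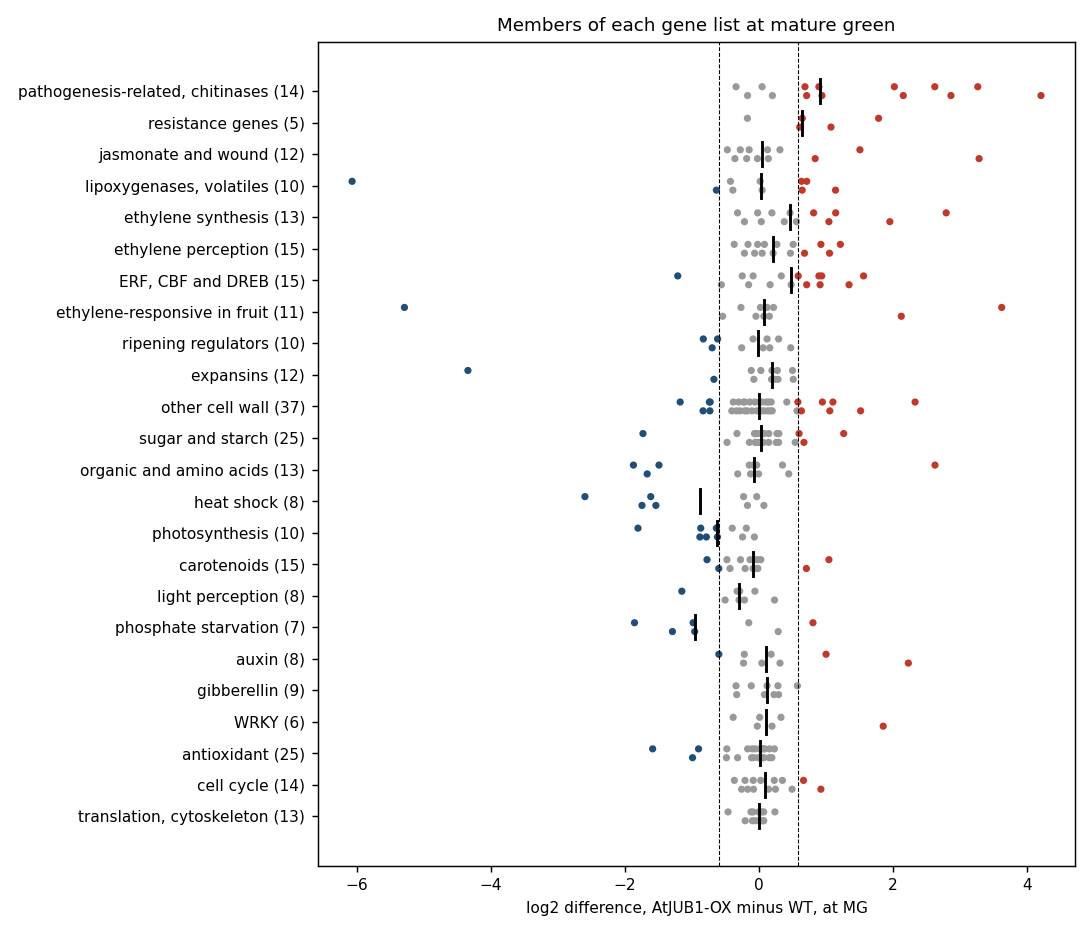
Log2 difference at MG, AtJUB1-OX minus WT, of the members of 24 gene lists, with a point for each gene (red at least 1.5-fold higher, dark blue at least 1.5-fold lower, grey between), a black bar at the list's median and the number of genes in brackets. The median is 0.92 for pathogenesis-related genes, -0.88 for heat shock genes, -0.62 for photosynthesis and 0.00 for translation and cytoskeleton.

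Of 25 sugar genes 3 were higher, 1 was lower and 21 were within 1.5-fold. The share called was 16%, against 21.0% over all named genes. The cell wall invertase gene lin5, which splits sucrose as it is unloaded in fruit, had 9.27 in AtJUB1-OX and 11.00 in WT at MG, and 11.63 in AtJUB1-OX and 11.49 in WT at B+7. The hexose transporter gene HT1 had 10.79 in AtJUB1-OX and 9.52 in WT, and HT2 had 11.91 in AtJUB1-OX and 11.31 in WT. The vacuolar invertase AI had 13.10 in AtJUB1-OX and 12.43 in WT. The other invertase genes LIN7, LIN8 and Wiv-1 differed by 0.09, 0.01 and 0.26. AGP-1, of starch synthesis, the brightest of the list, differed by 0.30.

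Among 13 genes of organic and amino acid metabolism 1 was higher and 3 lower, against 12.5% higher and 8.59% lower over all named genes. The higher one is the dim yfe37, for which RefSeq gives the synonym GAD3, a glutamate decarboxylase that makes GABA. It had 11.02 in AtJUB1-OX and 8.38 in WT at MG, and 6.58 in AtJUB1-OX and 8.84 in WT at B+7. The bright gad2, also a glutamate decarboxylase gene, had 11.70 in AtJUB1-OX and 11.25 in WT at MG, within 1.5-fold. The GABA transaminases GABA-TP1, GABA-TP2 and GABA-TP3 differed by -0.14, 0.36 and 0.00. PPCK1, the second kinase gene of phosphoenolpyruvate carboxylase, had 6.68 in AtJUB1-OX and 8.55 in WT, and the threonine deaminase TD2 4.08 in AtJUB1-OX and 5.57 in WT. Both kinase genes were dim, and both were lower. With the floor PPCK1 differs by -1.15 and TD2 is not called.

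A set of 7 genes known from phosphate starvation and phosphate transport was put together after their values were seen, so that how many of them were called is set by that choice and is read against no share. The phosphatase genes psi14A (6.54 in AtJUB1-OX and 8.39 in WT) and psi14B (10.39 in AtJUB1-OX and 11.34 in WT) were lower, as were the ribonuclease genes rnalx (4.93 in AtJUB1-OX and 6.22 in WT) and RNALE (5.24 in AtJUB1-OX and 6.22 in WT). All 3 probe sets of psi14B were lower, by -2.31 to -0.95. TPSI1 and the phosphate transporter PT1, both bright, differed by -0.15 and 0.29, and the transporter PT2 was higher by 0.81 at a weak signal. With the floor rnalx, RNALE and PT2 are no longer called and psi14A differs by -0.996.

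Of 14 aquaporin, pump and nutrient transporter genes 21.4% were called, against 21.0% over all named genes. The sulfate transporter ST2 had 6.04 in AtJUB1-OX and 8.64 in WT, and the potassium channel LKT1 7.26 in AtJUB1-OX and 5.85 in WT. With the floor ST2 differs by -1.25 and LKT1 is not called. The sodium/proton antiporter NHX1 had 10.39 in AtJUB1-OX and 11.73 in WT. FRO1, a ferric reductase gene named after its values were seen, had 4.41 in AtJUB1-OX and 9.10 in WT at MG, and 3.86 in AtJUB1-OX and 3.99 in WT at B+7. The WT array at MG is the only one of the 4 with a raised FRO1 level, and with the floor the difference is -1.70 in place of -4.68. LOC544001, which the tables give no other name, was likewise raised on that array alone, with 4.38 in AtJUB1-OX and 9.91 in WT at MG, and 3.15 in AtJUB1-OX and 2.88 in WT at B+7, and with the floor it differs by -2.51 in place of -5.53.

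Auxin response genes of the Aux/IAA family, repressors that auxin removes, included members well above WT. Of 8 auxin genes 2 were higher and 1 lower, against 12.5% higher and 8.59% lower over all named genes. IAA17 had 10.33 in AtJUB1-OX and 8.10 in WT, and its other probe set differed by 2.60. IAA3 had 12.59 in AtJUB1-OX and 11.58 in WT, and its other probe set differed by 1.07. IAA16 was lower by -0.59, a call lost under every scaling tried, while IAA27 and ARF3 differed by -0.21 and -0.23. The other ARF3 probe set differed the opposite way, by 0.32. No auxin efflux carrier is named on the array by the tables used here.

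CYP85A1 (Dwarf), which catalyses a late step of brassinosteroid synthesis, had 11.38 in AtJUB1-OX and 10.17 in WT, and both of its probe sets differed by 1.21. It is the only gene of that list. None of 9 gibberellin genes passed 1.5-fold, against 21.0% over all named genes, and only 1 of the 9 is bright. GAI, a DELLA repressor, had 7.16 in AtJUB1-OX and 7.49 in WT. The synthesis gene GA3ox1 had 3.32 in AtJUB1-OX and 3.03 in WT, a level near that of reporter probe sets. Of 7 genes of abscisic acid and dehydration 2 were higher and 1 lower, against 12.5% higher and 8.59% lower over all named genes. The synthesis gene NCED1 had 10.70 in AtJUB1-OX and 10.09 in WT, and the dehydrin TAS14 7.56 in AtJUB1-OX and 8.38 in WT. The lipid transfer protein gene LE16 had 6.80 in AtJUB1-OX and 5.51 in WT, both levels under the floor. The bright LEA14 and ltpg1 differed by 0.42 and -0.13, within 1.5-fold.

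TLRP, a tyrosine- and lysine-rich protein gene, had 13.03 in AtJUB1-OX and 9.33 in WT at MG, the widest difference upward among bright named genes (3.71), and 7.81 in AtJUB1-OX and 9.10 in WT at B+7. The homeobox genes h52 (10.97 in AtJUB1-OX and 9.25 in WT) and THOM1 (7.37 in AtJUB1-OX and 5.57 in WT) were higher, the other THOM1 probe set by 0.83. THOM1 lies under the floor on both arrays and is then not called. The bZIP gene vsf-1 had 10.41 in AtJUB1-OX and 11.11 in WT. The remaining 15 developmental factors stayed within 1.5-fold. Of this list of 18 genes 16.7% were called, against 21.0% over all named genes. GolS-1, a galactinol synthase gene named after its values were seen, had 6.44 in AtJUB1-OX and 3.58 in WT at MG, and 3.39 in AtJUB1-OX and 3.36 in WT at B+7. The AtJUB1-OX array at MG has the highest GolS-1 level of the 4, which still lies under the floor, so that with it GolS-1 is not called.

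In several lists a smaller share of genes was called than the 21.0% over all named genes. All 13 genes of translation and the cytoskeleton, all bright, were within 1.5-fold, from -0.46 to 0.24, with a median of 0.00. Of 25 antioxidant and redox genes 22 were within it, and the 3 lower ones, the metallothionein MT2, the oxidase RBOH1 and the peroxidase CEVI-1, are dim and are not called with the floor. The catalase and ascorbate peroxidase genes cat1, CAT2, APX1 and APX2 differed by -0.05 to 0.08. Of 14 cell cycle genes 12 were within it, and the cyclin CycA1 and the kinase CDKB1, both dim, were higher by 0.67 and 0.93, and CycA1 is not called with the floor. None of 7 phenylpropanoid and flavonoid genes passed 1.5-fold, but only THT7-1 of them is bright (0.01). DFR, at 3.50 on both arrays, and CHS1, CHS2 and ANT1 lie near the level of reporter probe sets. At such levels a difference can hardly be read.

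The marker list for seed, a tissue that pericarp can carry along, holds MAN2 (3.46 in AtJUB1-OX and 3.40 in WT) and LE16, and their summed signals had a log2 of 6.93 in AtJUB1-OX and 5.81 in WT. Of these 2, MAN2 is near the lowest values of the array, so that the sum follows LE16. LE16 (6.80 in AtJUB1-OX and 5.51 in WT) lies under the floor on both arrays and is also in the abscisic acid list. The list for anther and pollen has no named gene on the array. In a whole-tissue sample, fewer cells of a type and less RNA per cell cannot be told apart.

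Among the 9129 probe sets that the tables give no gene, 556 were higher and 605 lower at MG, and some differed more than any named gene. LesAffx.71476.1.S1_at had 11.41 in AtJUB1-OX and 3.78 in WT at MG, and 4.23 in AtJUB1-OX and 3.85 in WT at B+7. Les.5694.1.S1_at had 10.87 in AtJUB1-OX and 3.87 in WT at MG, and 6.88 in AtJUB1-OX and 7.01 in WT at B+7. Both were read strongly in AtJUB1-OX and near the lowest signals in WT at MG. In the other direction, Les.1287.2.S1_at had 7.36 in AtJUB1-OX and 11.19 in WT at MG, and 8.67 in AtJUB1-OX and 8.86 in WT at B+7. LesAffx.51348.1.A1_at had 3.97 in AtJUB1-OX and 7.67 in WT at MG, and 7.48 in AtJUB1-OX and 4.81 in WT at B+7, so that its difference turned from below 0 to above 0 between the stages.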

How the data were processed

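Pericarp RNA was hybridized to 4 GeneChip Tomato Genome Arrays. The values deposited by the authors are log2 signals, 1 per probe set and array, after background correction, normalization and summary. GCRMA and RMA stand in the processing notes of the submitters, with role, order and version not given in the sources used here. Of 10209 probe sets, 108 controls and 63 reporters were left out. Gene names came from the platform annotation (909 probe sets, 803 genes), with synonyms from RefSeq (assembly SLM_r2.1, names only) for 786 genes. A gene is represented by its probe set with the highest mean over the 4 arrays.

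Differences were counted at 1.5-fold. Genes were grouped in 32 lists by symbol or synonym, 43 wrong matches were removed by hand, and 31 lists kept a member. Members and lists were chosen with earlier results of these data known. The text names, among genes with a symbol and a signal above the median, the 15 largest increases and decreases, list members past 1.5-fold (up to 6 per direction) with the brightest member, and genes of the paper. Other genes, among them CHI17, PR-P2, P69A, JERF3, XTH16 and hdc, fall outside this rule and were named with values known. Alternatives tried were median-centred arrays, quantile normalization and loess (span 0.3) in limma 3.58.1, a floor at the 25th percentile, a 2-fold cut-off, signals above the median alone, reporters kept in, and other choices of probe set. The counting was tested on simulated data. Precision is limited by the number of arrays. Python 3.11.15, numpy 2.4.6, pandas 2.3.3 and R 4.3.3 were used.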

Additional observations from a re-analysis of the deposited data

Results flagged for a closer look

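Of the 803 named genes, 13 were at least 2-fold apart in opposite directions at the 2 stages, 12 of them higher in AtJUB1-OX at MG and lower at B+7. With 1 array per condition the difference between the stages was not tested. The log2 differences at MG and at B+7 were 3.71 and -1.29 for TLRP, 2.80 and -1.02 for the ACC synthase gene ACS1A, 2.63 and -2.26 for the glutamate decarboxylase gene yfe37, and 2.13 and -1.15 for ER5. They were 1.96 and -2.74 for the ACC oxidase gene ACO5, 1.05 and -1.08 for ACS3, 1.52 and -1.22 for the beta-galactosidase gene TBG5, and 1.51 and -1.16 for LAPA1. Among genes with a bare locus number they were 2.69 and -1.35 for LOC778302, 1.27 and -1.50 for LOC544300, 1.19 and -1.84 for LOC544060, and 1.13 and -1.83 for LOC544158. With the floor the MG difference was 0.12 for ACO5, 0.00 for ACS3, LOC544300 and LOC544158, and 1.09 for ACS1A. No floor was applied to the differences at B+7, some of which also rest on weak signals. There LAPA1 had 6.89 in AtJUB1-OX and 8.05 in WT, and yfe37 had 6.58 in AtJUB1-OX and 8.84 in WT, against the floor of 7.40. ACS3 and LOC544300 lay under the floor on both B+7 arrays. LOC778362 alone was lower at MG (-1.29) and higher at B+7 (1.94), and its other, dimmer probe set was higher at MG by 0.54.

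The array also carries 63 reporter probe sets for sequences often used in transgenes, which the comparison left out, and 2 of them were raised in AtJUB1-OX. The brighter had 12.04 in AtJUB1-OX and 4.53 in WT at MG, a difference of 7.51, and 12.23 in AtJUB1-OX and 5.06 in WT at B+7. The dimmer had 8.41 in AtJUB1-OX and 4.31 in WT at MG, a difference of 4.10, and 8.90 in AtJUB1-OX and 4.64 in WT at B+7. The other 61 differed by -0.37 to 0.18 at MG. The files list the reporters by sequence accession, with no name beside it.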

How the results depend on the processing

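With the floor at the 25th percentile, 398 probe sets were lower in place of 681. A 2-fold cut-off left 308 higher and 219 lower probe sets, and 57 higher and 31 lower named genes. Among signals above the median alone, 236 probe sets were higher and 184 lower, and 43 named genes were higher and 22 lower. Fewer features can pass under each of these by construction. No other alternative moved these counts by over 1.5 times. Of 115 genes called with the values as deposited and followed one by one, those of the naming rule and some named with values known, 111 kept the call with median-centred arrays, 111 with quantile normalization, 111 with the trend removed, 85 with the floor, 113 with the mean of a gene's probe sets and 115 with the probe set brightest at MG, and none turned its direction. The 30 calls that the floor ends are given beside the genes in the report, and it also ends those of LOC544300 and LOC544158. Median-centred arrays bring ACS6 past 1.5-fold (0.60). No paired analysis was possible because each genotype has 1 array per stage, and for the same reason no replicate could be left out. At weak signals, where most calls lie, the array limits what can be told apart.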
